A study of Rattus norvegicus with 13 samples.

Results

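Glucagon, the catecholamines, vasopressin, angiotensin II and epidermal growth factor act on the liver through receptors in the cell membrane. The account here follows 6 rat genes for such receptors, Gcgr, Adra2a, Adra1b, Avpr1a, Agtr1a and Egfr. Their members on the array were all probe sets, other than controls, that the array's annotation assigns to exactly 1 gene and that gene was 1 of the 6. The rule found 11 of 8740 probe sets, for 6 of 4736 named genes, 4 for Agtr1a, 3 for Adra2a and 1 for each of the other genes. Of these, 10 were bright enough to be tested among 5244 probe sets. The third Adra2a probe set was too dim.

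Hepatic RNA of time-mated female Sprague Dawley rats was measured on 13 one-colour Affymetrix rat arrays, in 4 groups that crossed ethanol with energy supply. EtOH-160 (n = 4) was an undernourished group that received 12 g ethanol per kg per day in a diet of 160 kcal, and TEN-160 (n = 3) received 160 kcal without ethanol. EtOH-220 (n = 3) received the same ethanol dose at 220 kcal, and TEN-220 (n = 3) 220 kcal without ethanol. Energy was given per day and per kg body weight to the power of 0.75. Whether each array carried the RNA of 1 animal or of pooled animals is not in the labels, and the p-values therefore reflect the spread between these arrays alone.

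The 6 receptors differ in how they signal. The glucagon receptor Gcgr couples to Gs, which raises cyclic AMP and through protein kinase A drives glycogen breakdown and glucose production, while Adra2a, the alpha-2A adrenergic receptor, couples to Gi and lowers cyclic AMP. Adra1b, Avpr1a and Agtr1a, the receptors for catecholamines, vasopressin and angiotensin II that hepatocytes are known for, couple to Gq, which releases calcium and also activates glycogen phosphorylase. Egfr is a receptor tyrosine kinase that acts through the Ras and MAP kinase cascade and through Akt, and it is known for its part in liver growth and regeneration.

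Agtr1a had the most calls. All 4 of its probe sets were lower in EtOH-160 than in TEN-160, and 3 of them were also higher in TEN-160 than in TEN-220. The call of the remaining Agtr1a probe set, M86912exon_at, was lost under several alternatives. Adra2a followed the course of the other 3 on 1 probe set, from a low signal, and not on another. Egfr was higher in EtOH-160 than in TEN-160 on its only probe set, with 1 TEN-160 array far below the others. The Egfr call was lost in most fits that left out 1 array. Gcgr, Adra1b and Avpr1a passed the test in none of the comparisons, although Gcgr and Adra1b did under another normalization, described with each.

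Signals are quantile-normalized and on a linear scale. A change is the difference between the mean log2 signals of the groups, and its standard error (SE) comes from a limma fit to all 13 arrays. A probe set was called at a Benjamini-Hochberg adjusted p under 0.05 over all 5244 probe sets. The background, a signal of 44.0, was the 95th percentile of 19 bacterial and yeast control probe sets. A probe set's signal depends on its own sequence, so levels are set beside each other only within a probe set. In whole tissue, fewer cells of a type and less RNA per cell cannot be told apart.

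For EtOH-160 minus TEN-160, the effect of ethanol at 160 kcal, 6 of the 10 tested probe sets, of 3 genes, were called, 1 higher and 5 lower, where 22.3% of all tested probe sets were called. The groups did not overlap for 6 of 10, against 31.1% of all. The median change of the 10 was −0.50, and that of all tested probe sets was 0.02. For TEN-160 minus TEN-220, the effect of energy supply without ethanol, 4 of 10, of 2 genes, were called and all were higher, where 17.8% of all were called. The groups did not overlap for 6 of 10, against 36.5% of all. These comparisons share the TEN-160 arrays, so a high value there enters both with opposite sign.

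The comparisons without TEN-160 called no receptor. For EtOH-220 minus TEN-220, the effect of ethanol at 220 kcal, limma called 0 of 10 receptor probe sets against 0.0191% of all. An unadjusted p under 0.05 was found for 1 of 10, against 524 of all 5244, and the groups did not overlap for 3 of 10 against 17.8% of all. For EtOH-160 minus EtOH-220, the effect of energy supply with ethanol, limma called 0 of 10 against 0.286%. Here 1 of 10 had an unadjusted p under 0.05, against 584 of 5244, and 2 of 10 did not overlap against 10.2%. For EtOH-160 minus TEN-220, both treatments together, limma called 0 of 10 against 2.23%. Here 1 of 10 had an unadjusted p under 0.05, against 723 of 5244, and 1 of 10 did not overlap against 16.8%. Across these comparisons the receptors' changes lay between −0.61 and 0.78. The interaction, the change with ethanol at 160 kcal minus that at 220 kcal, was called for 3 of 10, all lower and all of Agtr1a, against 7.13% of all. With only TEN-220 replicate 1 rescaled in place of quantile normalization it was again called for 3, with Adra2a U79031_at in place of Agtr1a M86912exon_g_at.

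**Figure D1:**
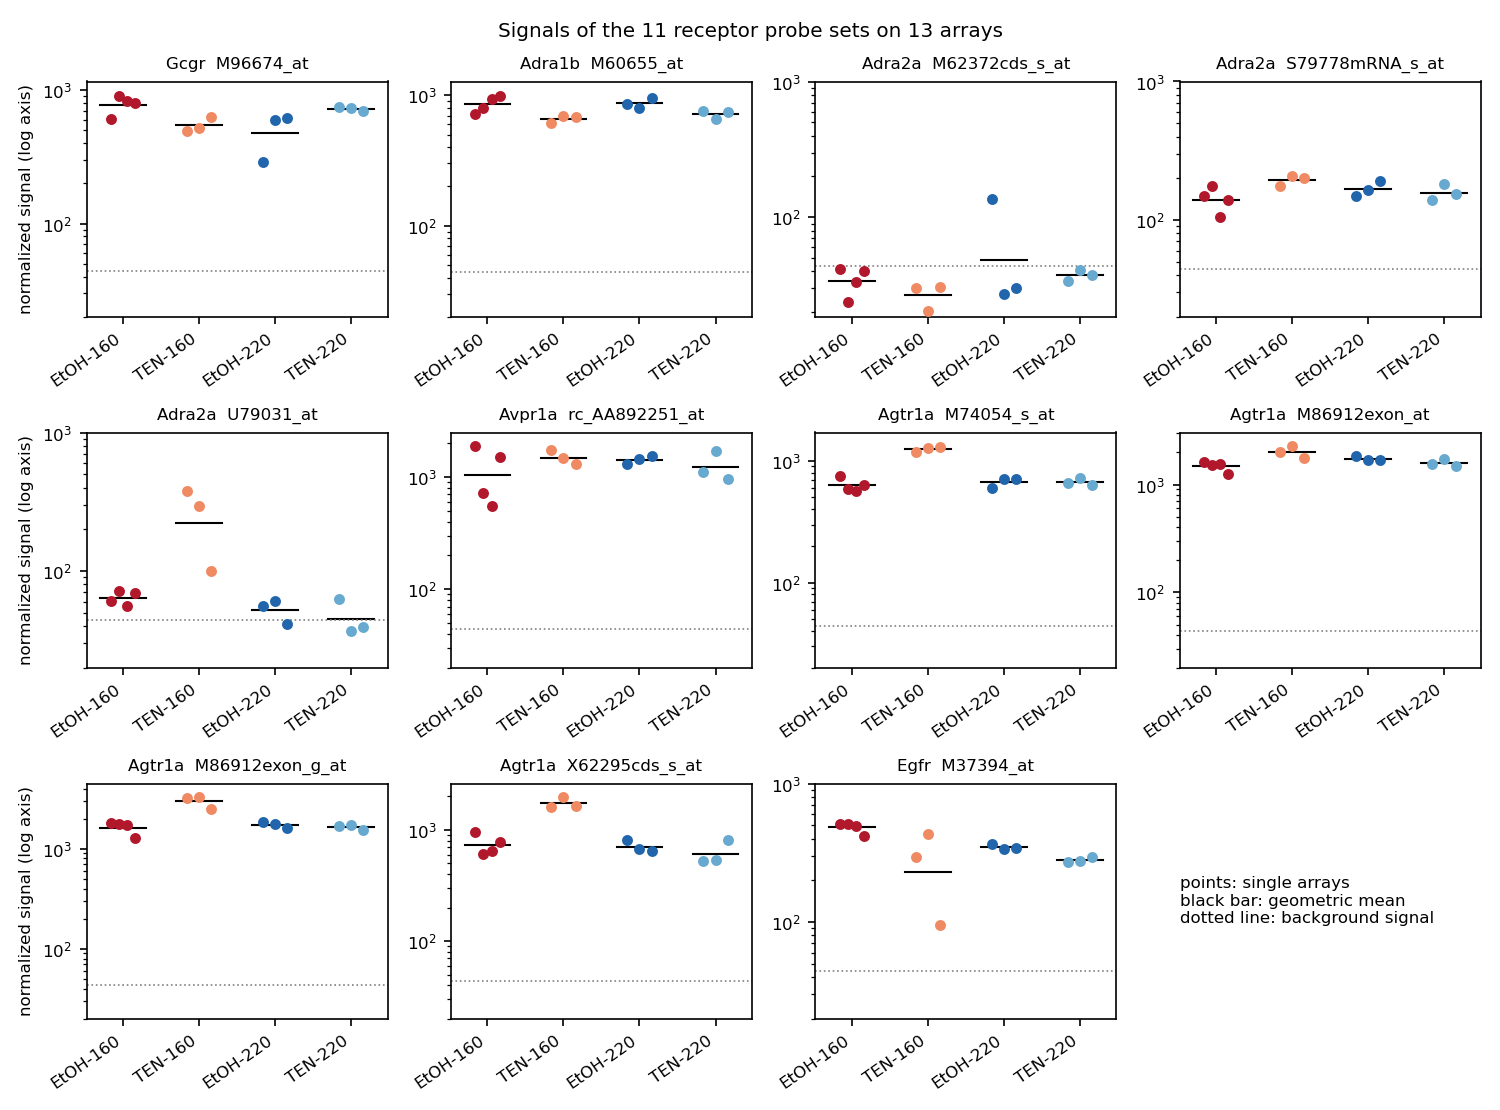
Normalized signal (log axis) of each of the 11 receptor probe sets on each array, by group. Points are single arrays, black bars geometric means and the dotted line the background of 44.0. The 3 TEN-160 arrays lie above all 10 others for 3 of the 4 Agtr1a probe sets and for Adra2a U79031_at, while 1 TEN-160 array lies far below the rest for Egfr M37394_at.

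**Figure D2:**
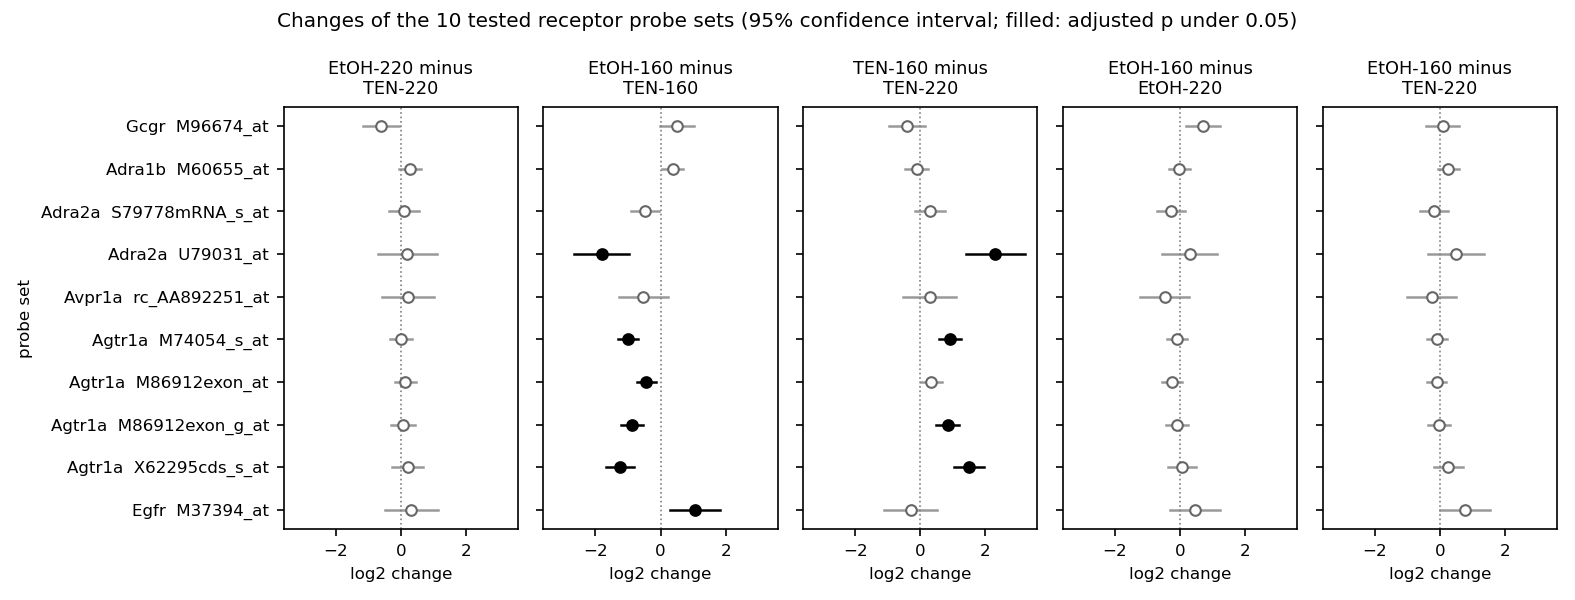
Log2 change of the 10 tested receptor probe sets in 5 comparisons, with the 95% confidence interval of the limma fit. Filled points had an adjusted p under 0.05. They occur in EtOH-160 minus TEN-160 and in TEN-160 minus TEN-220, the comparisons that hold the TEN-160 arrays.

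The TEN-160 arrays stood apart in other ways. Of the 10 receptor probe sets, 4 had all TEN-160 signals outside the range of the other 10 arrays, each time above it, as had 15.0% of all tested probe sets in either direction. The signal ratio of the control probe sets BioDn-5 and BioDn-3 was 0.422 to 0.497 on them and 0.132 to 0.210 on the other arrays. The GAPDH 3′/5′ ratio, which grows as RNA degrades, ran from 1.50 to 1.73 in EtOH-160, 1.03 to 1.24 in TEN-160, 1.04 to 1.47 in EtOH-220 and 1.52 to 2.32 in TEN-220. It moved with the groups too, but TEN-160 overlapped EtOH-220. The beta-actin 3′/5′ ratio overlapped in all groups, at 1.77 to 2.31 in EtOH-160, 1.91 to 2.96 in TEN-160, 1.93 to 2.18 in EtOH-220 and 1.97 to 3.00 in TEN-220. In the comparisons that use TEN-160, such differences between arrays and the diet cannot be told apart. Outside those comparisons, the GAPDH ratio did not overlap between EtOH-220 and TEN-220, nor between EtOH-160 and EtOH-220. There it cannot be told apart from the diet either. All 13 measured hepatocyte markers had a geometric mean above background in every group. Their summed signal was 250188 to 265335 in EtOH-160, 264618 to 275839 in TEN-160, 248680 to 272247 in EtOH-220 and 259734 to 273619 in TEN-220. Of the 13, 3 were called with ethanol at 160 kcal (1 higher, 2 lower), against 22.3% of all tested probe sets. For energy without ethanol 2 were called (1 higher, 1 lower), against 17.8%. TEN-220 replicate 1 had been deposited on another scale and was brought to the others by the normalization.

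Gcgr, measured by M96674_at, was well above background on all 13 arrays. Its signals were 604, 908, 825.5 and 798 in EtOH-160 and 496, 518 and 627 in TEN-160. They were 292, 601 and 623 in EtOH-220 and 751, 731 and 703 in TEN-220. The 220 kcal groups did not overlap, with all EtOH-220 arrays below all TEN-220 arrays, but EtOH-220 replicate 1 lay far under the other 2 of its group. The change with ethanol was −0.61 at 220 kcal (SE 0.256, limma adjusted p = 0.478) and 0.51 at 160 kcal (SE 0.240, limma adjusted p = 0.144, overlapping groups). Without EtOH-220 replicate 1 the change at 220 kcal was −0.25, and the change at 160 kcal, still 0.51, was then called (limma adjusted p = 0.0318), the only such fit of 13 that called it. The interaction of Gcgr was 1.12 (SE 0.351), with a limma adjusted p of 0.0685, and it was called in 1 of 13 fits that left out 1 array, that without EtOH-220 replicate 3 (limma adjusted p = 0.0465). Energy with ethanol gave 0.70 (SE 0.240, limma adjusted p = 0.265), and energy without ethanol −0.42 (SE 0.256, limma adjusted p = 0.283). The 95% interval of the fold with ethanol at 160 kcal, 0.997 to 2.04, holds both no change and a rise of 2.04 times. With median centring Gcgr was called both for ethanol at 160 kcal (limma adjusted p = 0.036) and in the interaction (limma adjusted p = 0.0216).

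Adra2a had 3 probe sets that did not show the same thing. On U79031_at the signals were 60.9, 71.2, 55.5 and 69.1 in EtOH-160 and 378, 293 and 100.4 in TEN-160. They were 56.2, 60.9 and 41.1 in EtOH-220 and 62.9, 37 and 39.5 in TEN-220. The TEN-160 arrays were above all others, with replicate 3 well under the other 2, and the remaining groups lay near the background: 2 of 3 EtOH-220 arrays and 1 of 3 TEN-220 arrays exceeded 44.0.

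The U79031_at signal fell by 1.80 on the log2 scale with ethanol at 160 kcal (SE 0.395, limma adjusted p = 0.00616, all 4 EtOH-160 arrays below all 3 TEN-160 arrays). It rose by 2.30 with the lower energy supply without ethanol (SE 0.422, limma adjusted p = 0.00254). Since 2 of 3 TEN-220 arrays were under the background, no fold is given, and with signals under 44.0 set to that value the rise was at least 2.17 (limma adjusted p = 0.0022). The change with ethanol at 220 kcal was 0.20 (SE 0.422, limma adjusted p = 0.913), and the interaction was −2.01 (SE 0.578, limma adjusted p = 0.0521). Without TEN-160 replicate 3 the change with ethanol at 160 kcal was −2.41 and the interaction −2.61, which was then called (limma adjusted p = 0.00666). The interaction was also called with only TEN-220 replicate 1 rescaled (−2.34, limma adjusted p = 0.0211), with median centring, with signals under the background set to it and without a variance trend.

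The second Adra2a probe set, S79778mRNA_s_at, had 150, 175, 104 and 138.5 in EtOH-160 and 175, 206.5 and 202 in TEN-160. It had 149.7, 166 and 190.3 in EtOH-220 and 139, 182.5 and 154 in TEN-220. All groups overlapped in the 5 pairwise comparisons, and the changes were −0.48 with ethanol at 160 kcal (limma adjusted p = 0.106) and 0.30 for energy without ethanol (limma adjusted p = 0.362). They had the sign of U79031_at in both comparisons and were far smaller. The third, M62372cds_s_at, read 23.7 to 41.7 in EtOH-160, 20.4 to 30.9 in TEN-160 and 33.9 to 41 in TEN-220, all not well above background, so no fold is given. In EtOH-220 it read 137.5 on replicate 1 and 27.4 and 30.4 on the others, and it was not tested.

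The promoter windows of Adra2a and Agtr1a, the receptors with a probe set high on the TEN-160 arrays alone, are shown to place those probe sets beside the sequence at their genes' start. Each is the 250 bases before the annotated start of transcription in RefSeq's GRCr8 assembly, which held all 6 receptors. Both strands were searched for 5 motifs, and matches are in capitals: the full cyclic AMP response element TGACGTCA, its shorter core TGACG, the glucocorticoid element core AGAACA, the GC box GGGCGG and the TATA box TATAAA. The shorter core lies within the full element. Of 33469 promoter windows of that length, 1.59%, 18.2%, 17.5%, 30.5% and 12.9% held them, in that order. The Agtr1a window, on the minus strand at chr17:34435433-34435682, held a TGACG core on the opposite strand 159 bases before the start, 2 GC boxes that share 1 base at 117 and 112 bases, and a TATA box at 45 bases. The Adra2a window, on the plus strand at chr1:263066530-263066779, held none of the 5. A match describes letters and shows no bound factor.
Agtr1a: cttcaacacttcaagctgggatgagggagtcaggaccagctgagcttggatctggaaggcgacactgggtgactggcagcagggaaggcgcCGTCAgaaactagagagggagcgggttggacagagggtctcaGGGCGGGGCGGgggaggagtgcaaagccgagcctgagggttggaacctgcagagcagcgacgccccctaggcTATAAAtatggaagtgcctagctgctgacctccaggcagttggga
Adra2a: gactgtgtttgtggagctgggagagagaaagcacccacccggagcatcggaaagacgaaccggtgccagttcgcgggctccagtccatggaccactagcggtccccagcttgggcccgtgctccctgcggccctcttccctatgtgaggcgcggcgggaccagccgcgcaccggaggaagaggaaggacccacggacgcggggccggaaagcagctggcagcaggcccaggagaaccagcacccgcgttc

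Adra1b, the main alpha-1 adrenergic receptor of rat hepatocytes, was called in none of the comparisons. M60655_at read 724, 804, 929 and 993 in EtOH-160 and 614, 691 and 683 in TEN-160. It read 865, 801.5 and 948 in EtOH-220 and 759, 652.5 and 741 in TEN-220. The ethanol-fed arrays were above the arrays without ethanol at both energy levels, with no overlap. The changes were 0.37 at 160 kcal (SE 0.149, limma adjusted p = 0.0889) and 0.28 at 220 kcal (SE 0.159, limma adjusted p = 0.582), so neither passed the test. With median centring the change at 160 kcal was 0.60 and was called (limma adjusted p = 0.0117). As folds, the reported changes of 0.37 and 0.28 were 1.29, with a 95% interval of 1.04 to 1.61, and 1.21, with 0.959 to 1.54. The interaction was 0.09 (SE 0.217, limma adjusted p = 0.833).

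Avpr1a, the vasopressin receptor that mediates glycogen breakdown, spread widely within EtOH-160. Probe set rc_AA892251_at read 1876, 717, 557 and 1518 in EtOH-160 and 1729.9, 1466 and 1300.3 in TEN-160. It read 1317, 1440.5 and 1525 in EtOH-220 and 1105, 1718 and 962 in TEN-220. Replicates 1 and 4 of EtOH-160 were high and replicates 2 and 3 low, with a ratio of 3.37 between highest and lowest, and every compared pair of groups overlapped. The changes lay between −0.53, with ethanol at 160 kcal (SE 0.351, limma adjusted p = 0.306), and 0.28, for energy without ethanol (SE 0.375, limma adjusted p = 0.646). With an SE of this size the fold with ethanol at 160 kcal had a 95% interval of 0.412 to 1.17.

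Agtr1a encodes the main angiotensin II receptor of rat liver, and its 4 probe sets gave independent readings of the transcript only in part, since M86912exon_at and M86912exon_g_at were designed on the same sequence entry. On M74054_s_at the signals were 752, 592.5, 564 and 638 in EtOH-160 and 1191, 1276 and 1311 in TEN-160. They were 600.2, 713 and 706.5 in EtOH-220 and 655, 728 and 633 in TEN-220. The TEN-160 arrays were clear of all others, and the 3 other groups overlapped one another. On X62295cds_s_at the signals were 958, 602, 642 and 778 in EtOH-160, 1599, 1968 and 1646 in TEN-160, 804, 671 and 647 in EtOH-220, and 521, 534 and 813 in TEN-220. Again TEN-160 lay above the 10 other arrays.

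On M86912exon_g_at the signals were 1789.5, 1779, 1729.9 and 1266.5 in EtOH-160 and 3217, 3289 and 2471.5 in TEN-160. They were 1837, 1774 and 1599 in EtOH-220 and 1683, 1742 and 1545 in TEN-220. TEN-160 was again above all others, and EtOH-160 replicate 4 was below every other array. On M86912exon_at the signals were 1603, 1512.5, 1536 and 1260 in EtOH-160 and 1997, 2267 and 1747.5 in TEN-160. They were 1834, 1699 and 1699 in EtOH-220 and 1534, 1729.9 and 1478.5 in TEN-220. Here TEN-160 lay above EtOH-160 and above TEN-220, but 1 EtOH-220 array exceeded the lowest TEN-160 array.

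With ethanol at 160 kcal Agtr1a fell on all 4 probe sets. X62295cds_s_at fell by 1.24 (SE 0.202, limma adjusted p = 0.00107), M74054_s_at by 0.99 (SE 0.144, limma adjusted p = 0.000548) and M86912exon_g_at by 0.87 (SE 0.157, limma adjusted p = 0.00193). M86912exon_at fell by 0.44 (SE 0.138, limma adjusted p = 0.0363). In each case all 4 EtOH-160 arrays were below all 3 TEN-160 arrays, and the folds were 0.423, 0.503, 0.547 and 0.739, listed by probe set as above. The call of M86912exon_at was lost in 6 of 13 fits that left out 1 array (highest adjusted p 0.13), and also with only TEN-220 replicate 1 rescaled, with median centring, as deposited, without a variance trend, with only the groups compared and with a replicate block, over which and the other alternatives the change lay between −0.44 and −0.11. The other 3 probe sets were called in all 13.

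For energy without ethanol, X62295cds_s_at rose by 1.51 (SE 0.216, limma adjusted p = 0.0006), M74054_s_at by 0.91 (SE 0.154, limma adjusted p = 0.00159) and M86912exon_g_at by 0.84 (SE 0.168, limma adjusted p = 0.00438). All 3 TEN-160 arrays were above all 3 TEN-220 arrays for each. M86912exon_at gave 0.34 (SE 0.148, limma adjusted p = 0.135) and was not called. With median centring M86912exon_g_at lost both this call (limma adjusted p = 0.112) and that for ethanol at 160 kcal (limma adjusted p = 0.0645).

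At 220 kcal the Agtr1a change with ethanol lay between 0.00 and 0.21 over the 4 probe sets, at limma adjusted p of 0.791 to 0.999. The interaction was −1.45 on X62295cds_s_at (SE 0.295, limma adjusted p = 0.0123), −0.99 on M74054_s_at (SE 0.211, limma adjusted p = 0.0158) and −0.94 on M86912exon_g_at (SE 0.230, limma adjusted p = 0.0292). On M86912exon_at it was −0.58 (SE 0.203, limma adjusted p = 0.0972). Without TEN-220 replicate 1 the interaction was called only on X62295cds_s_at, and on M86912exon_g_at it was called in 7 of 13 fits that left out 1 array. With median centring, too, X62295cds_s_at was the only Agtr1a probe set called. EtOH-160 against TEN-220 differed by −0.10 to 0.27, at limma adjusted p of 0.631 to 0.968, and their ranges overlapped on every Agtr1a probe set.

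The near-identical gene Agtr1b, the other angiotensin type 1 receptor gene of the rat, had 4 tested probe sets of the family type, which can pick up related transcripts. Only S37461_f_at was called, in 1 comparison, higher by 0.85 for energy without ethanol (SE 0.243, limma adjusted p = 0.0278). Its signals were 184.5, 139.6, 160.2 and 174 in EtOH-160, 342, 258 and 179.5 in TEN-160, 144, 224 and 177 in EtOH-220, and 138, 128 and 152 in TEN-220. With ethanol at 160 kcal it changed by −0.62 (limma adjusted p = 0.0675) and the other 3 by −0.09 to 0.02. For energy without ethanol those 3 changed by 0.29 to 1.02 (limma adjusted p of 0.159 to 0.451). All 4 had a negative interaction, −0.98 to −0.43, and a positive change with ethanol at 220 kcal, 0.34 to 0.997, none of them called. How far the 2 genes' transcripts share these signals was not tested.

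Agtr1a is also known from vascular and stellate cells. The summed signal of the stellate cell and fibroblast markers, 14 on the array of 17 listed, was 6834 to 9282 in EtOH-160, 9320 to 10433 in TEN-160, 6888 to 10422 in EtOH-220 and 5453 to 7441 in TEN-220, and desmin (Des) was below background on every array. Of the 11 tested, 4 were called with ethanol at 160 kcal, 1 higher and 3 lower, and 1, lower, for energy without ethanol. Of all tested probe sets, 22.3% and 17.8% were called in these comparisons. For Kupffer cell and macrophage markers, 11 of 17 on the array, the sum was 8258 to 10302 in EtOH-160, 11971 to 13627 in TEN-160, 8775 to 13546 in EtOH-220 and 11031 to 12508 in TEN-220. With ethanol at 160 kcal 4 of the 10 tested were called, 1 higher and 3 lower, against 22.3% of all tested probe sets. RT1-Ba, 1 of these 3, was also higher for energy without ethanol and lower in the interaction, on 1 of its 3 tested probe sets. For endothelial markers, 7 of 13, the sum was 1572 to 2020 in EtOH-160, 1529.8 to 2504 in TEN-160, 1587 to 1785 in EtOH-220 and 1328 to 1459 in TEN-220. Of the 7 tested, Lyve1 was lower with ethanol at 160 kcal, against 22.3% of all tested probe sets called. Lyve1 and Kdr were higher for energy without ethanol, against 17.8%. Their part in the Agtr1a changes was not tested.

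Egfr, measured by M37394_at, read 507, 511.5, 491.5 and 421 in EtOH-160 and 295, 428 and 95.7 in TEN-160. It read 367, 339 and 342 in EtOH-220 and 272, 274.5 and 295 in TEN-220. The EtOH-160 arrays were close together, TEN-160 replicate 3 was far below every other array, and TEN-160 replicate 2 exceeded the lowest EtOH-160 array. With ethanol at 160 kcal Egfr rose by 1.07 (SE 0.355, limma adjusted p = 0.0444), a fold of 2.10 with a 95% interval of 1.24 to 3.56. Without TEN-160 replicate 3 the change was 0.44 and no longer called (limma adjusted p = 0.111), and the call held in 1 of 13 fits that left out 1 array and in 4 of 9 other alternatives.

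For energy without ethanol Egfr changed by −0.29 (SE 0.379, limma adjusted p = 0.646). The comparisons without TEN-160 differ in ethanol, energy supply or both. Their Egfr changes were smaller than 1.07 and positive, and none was called in the reported fit. EtOH-160 exceeded TEN-220 by 0.78 (SE 0.355, limma adjusted p = 0.351), with no overlap. EtOH-160 exceeded EtOH-220 by 0.46 (SE 0.355, limma adjusted p = 0.674), and EtOH-220 exceeded TEN-220 by 0.32 (SE 0.379, limma adjusted p = 0.837), also with no overlap. The spread in this fit is shared by all groups and so includes TEN-160 replicate 3; fitted on the EtOH-160 and TEN-220 arrays alone, the 0.78 was called (limma adjusted p = 0.021).

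Receptors pass their signal to G proteins, kinases and target genes, and 8 lists of such genes were described by their counts. Each gene entered by its brightest tested probe set, and 137 of 250 listed genes were measured. In 7 of the 8 lists, the share called with ethanol at 160 kcal was between 7.69% and 38.5%, against 22.3% of all tested probe sets. In the glucagon-responsive metabolic genes it was 66.7%, with 12 of 18 called, 11 higher and 1 lower. That list was not split by whether glucagon raises or lowers a gene, so these counts give no direction of a glucagon response. For energy without ethanol the 7 lists had 0% to 20% called and the glucagon-responsive genes 27.8%, against 17.8% of all tested probe sets. All 8 lists were chosen with earlier results of these data known, so these shares describe the lists and test nothing.

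**Figure D3:**
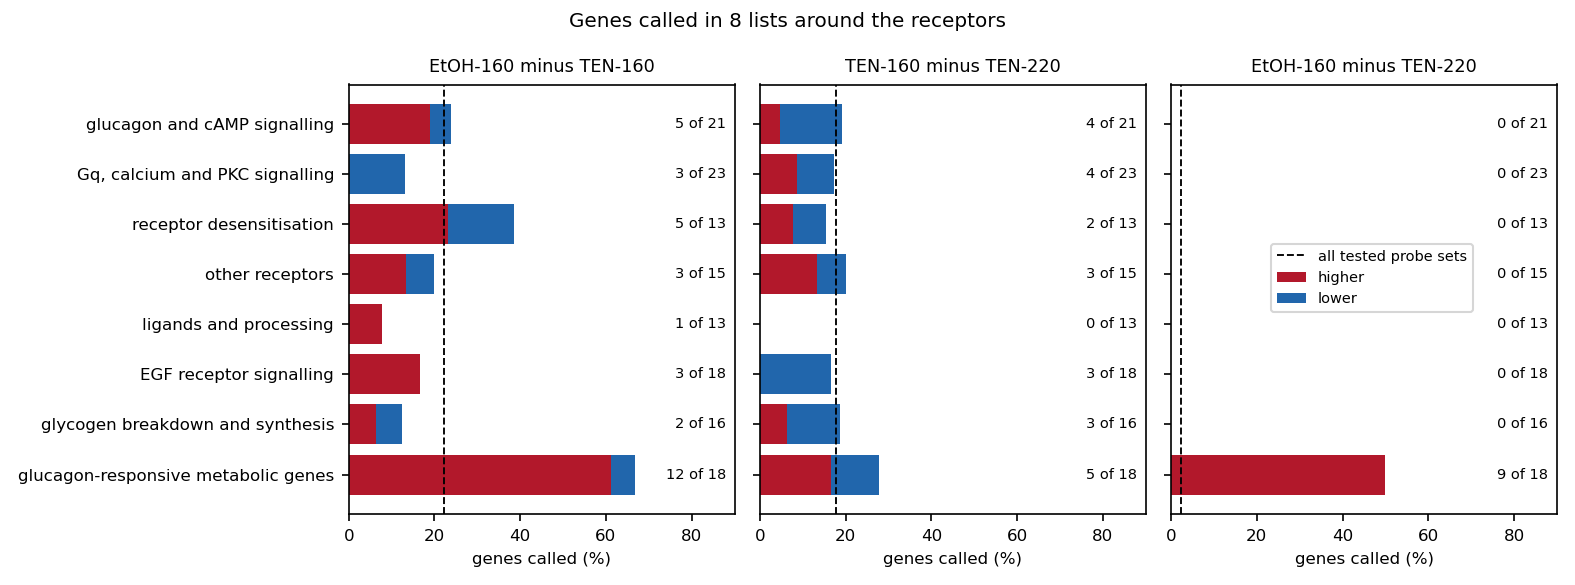
Share of measured genes called (%) in 8 lists around the receptors, for 3 comparisons, split into higher (red) and lower (blue), with called over measured genes printed at the right. The dashed line is the share of all tested probe sets. The glucagon-responsive metabolic genes had 12 of 18 called for EtOH-160 minus TEN-160 and 9 of 18 for EtOH-160 minus TEN-220, where the other 7 lists had 0. All 8 lists were chosen with earlier results of these data known.

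Of the genes that carry the cyclic AMP signal, 5 of 21 were called with ethanol at 160 kcal (4 higher, 1 lower) and 4 of 21 for energy without ethanol (1 higher, 3 lower). These shares, 23.8% and 19%, were near the 22.3% and 17.8% of all tested probe sets. Rapgef4, a cyclic AMP-regulated exchange factor for the small G protein Rap, read 103, 160.5, 131 and 143 in EtOH-160, 417, 509 and 462.5 in TEN-160, 139, 68.8 and 80.3 in EtOH-220, and 53.8, 107 and 78.6 in TEN-220. TEN-160 lay above all others. It fell by 1.79 with ethanol at 160 kcal (SE 0.280, limma adjusted p = 0.000866) and rose by 2.59 for energy without ethanol (SE 0.300, limma adjusted p = 0.000197). The inhibitory G protein subunit Gnai2 changed the other way, by 0.58 and −0.70, but another of its probe sets had the opposite sign in both comparisons. Akap1, an anchor of protein kinase A, rose by 0.89 with ethanol at 160 kcal, but without TEN-160 replicate 3 its change was 0.53 and not called (limma adjusted p = 0.0758), and the call was also lost with the replicate block. Prkaca, a catalytic subunit of that kinase, fell by 1.22 for energy without ethanol.

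Of the Gq, calcium and protein kinase C genes, 3 of 23 were called with ethanol at 160 kcal, all lower, and 4 of 23 for energy without ethanol, 2 in each direction. These shares were 13% and 17.4%, against 22.3% and 17.8% of all tested probe sets. Prkcb, a calcium-dependent protein kinase C, fell by 1.44 with ethanol at 160 kcal (SE 0.212, limma adjusted p = 0.000598), with 65.3 to 120.1 in EtOH-160 and 212 to 272 in TEN-160. Plcb1, a phospholipase C that Gq activates, fell by 0.93 and Camk2d, a calmodulin-dependent kinase, by 0.68. For energy without ethanol Plcb1 rose by 0.85 and Camk2d by 0.70, while the store-operated calcium channel Orai1 fell by 1.40 and Prkcz by 1.58. Both were low on TEN-160 replicate 3: without it Orai1 changed by −0.77, still called (limma adjusted p = 0.026), and Prkcz by −0.92, not called (limma adjusted p = 0.065).

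Of the desensitisation genes, which uncouple and internalise receptors, 5 of 13 were called with ethanol at 160 kcal (3 higher, 2 lower) and 2 of 13 for energy without ethanol. These shares were 38.5% and 15.4%, against 22.3% and 17.8% of all tested probe sets. Dnm2, the dynamin that pinches off endocytic vesicles, rose by 1.23 with ethanol at 160 kcal and fell by 1.46 for energy without ethanol. Rgs14 and Rgs19, which speed up inactivation of Gi proteins, rose by 0.76 and 1.37 with ethanol at 160 kcal, although Rgs19 had a geometric mean of 37.0 in TEN-160, under the background. Of the other receptors, 3 of 15 (20%) were called in each of these comparisons, against the same shares of all tested probe sets.

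Met, the receptor for hepatocyte growth factor, fell by 1.24 with ethanol at 160 kcal (SE 0.260, limma adjusted p = 0.0048), rose by 1.30 for energy without ethanol (SE 0.278, limma adjusted p = 0.00685) and had an interaction of −1.83 (SE 0.380, limma adjusted p = 0.0135). Adra1d, another alpha-1 receptor, went the opposite way, by 1.52 and −1.49, and without TEN-160 replicate 3 both calls were lost, at 1.02 and −0.99. Insr, the insulin receptor, rose by 0.79 with ethanol at 160 kcal (limma adjusted p = 0.0333).

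Of the ligands and their processing enzymes, 1 of 13 was called, only with ethanol at 160 kcal, against 22.3% of all tested probe sets. It was Enpep, an aminopeptidase that cleaves angiotensin II, which rose by 0.66 (SE 0.220, limma adjusted p = 0.0446). Of the Egfr pathway genes, 3 of 18 (16.7%) rose with ethanol at 160 kcal, against 22.3% of all tested probe sets called. The same 3 fell for energy without ethanol, which shares the TEN-160 arrays, against 17.8% of all. These were Map2k2, a MAP kinase kinase (0.92 and −0.92), the kinase Akt1 (0.70 and −0.62) and the phospholipase Plcg1 (1.35 and −1.14). Plcg1 read 43.3 on TEN-160 replicate 3, against 100.5 and 149.4 on the other TEN-160 arrays, the same array that was low for Egfr, and without it the Plcg1 changes were 0.86, still called, and −0.65, not called (limma adjusted p = 0.0912).

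Of the glycogen enzymes and their regulators, which all of the calcium- and cyclic AMP-coupled receptors act on, 2 of 16 were called with ethanol at 160 kcal and 3 of 16 for energy without ethanol. These shares were 12.5% and 18.8%, against 22.3% and 17.8% of all tested probe sets. Pygl, the liver glycogen phosphorylase, rose by 0.60 for energy without ethanol (SE 0.173, limma adjusted p = 0.0296). Pgm1, which interconverts glucose phosphates, fell by 0.70 in that comparison. Phkg2, the catalytic subunit of liver phosphorylase kinase, rose by 0.74 with ethanol at 160 kcal and fell by 0.67 for energy without ethanol.

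The glucagon-responsive metabolic genes were the list with the largest share of calls. With ethanol at 160 kcal their median change was 0.85, against 0.02 for all tested probe sets. With both treatments 9 of 18 were called, all higher, against 2.23% of all tested probe sets. The median there was 0.86 against −0.02. With ethanol at 220 kcal limma called 0 of 18, with a median of 0.28 against −0.04.

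Sds, the serine dehydratase of gluconeogenesis from amino acids, read 739, 4686, 6023 and 4394 in EtOH-160, 152, 133 and 142 in TEN-160, 186, 327 and 140.1 in EtOH-220, and 40.3, 26.4 and 101.4 in TEN-220. EtOH-160 lay above all others, and 1 of 3 TEN-220 arrays was above background. Its change was 4.44 with ethanol at 160 kcal (SE 0.615, limma adjusted p = 0.000405) and 6.02 with both treatments (SE 0.615, limma adjusted p = 0.000248), or at least 5.73 with signals under the background set to it. Asl, the urea cycle lyase, rose by 1.39 and 1.96 in these comparisons, with 2274 to 4236 in EtOH-160, 1065 to 1360.2 in TEN-160, 1075 to 1430.2 in EtOH-220 and 743 to 830.3 in TEN-220. Slc37a4, the glucose 6-phosphate transporter of the endoplasmic reticulum, rose by 1.67 and 0.87, and Gpt, alanine aminotransferase, by 2.13 with ethanol at 160 kcal (limma adjusted p = 0.000371).

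For energy without ethanol 5 of 18 genes of the list were called, 3 higher and 2 lower, against 17.8% of all tested probe sets. The list's median change was 0.007, against −0.03. Slc37a4 changed by −0.81 (limma adjusted p = 0.0132) and Gpt by −1.04 (limma adjusted p = 0.0315). Both had risen with ethanol at 160 kcal, which shares the TEN-160 arrays. The 3 genes higher for energy without ethanol were Cpt1a, Igfbp1 and Pck1. Cpt1a, the rate-limiting step of mitochondrial fatty acid entry, rose by 2.07 there (SE 0.314, limma adjusted p = 0.0008) and fell by 1.33 with ethanol at 160 kcal. Igfbp1, a binding protein for insulin-like growth factors, rose by 3.16 for energy without ethanol (SE 0.587, limma adjusted p = 0.00277) and Pck1, the rate-limiting enzyme of gluconeogenesis, by 2.48 (SE 0.632, limma adjusted p = 0.0163). Pck1 also rose by 2.54 with both treatments (limma adjusted p = 0.0416). With ethanol at 160 kcal Igfbp1 changed by −1.10 (limma adjusted p = 0.170) and Pck1 by 0.07 (limma adjusted p = 0.912), neither called. Gcgr itself changed by 0.51 with ethanol at 160 kcal and by 0.09 with both treatments, and was called in neither.

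**Figure D4:**
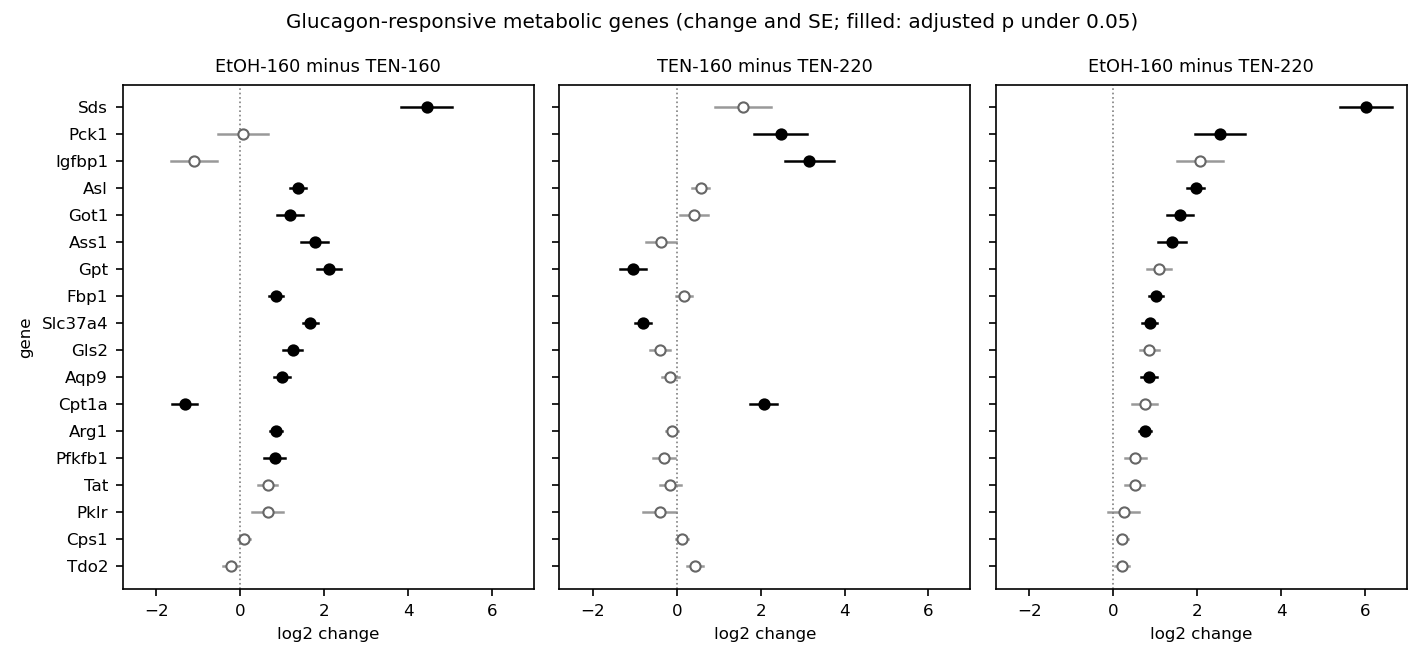
Log2 change with its SE of the 18 measured glucagon-responsive metabolic genes in 3 comparisons, ordered by their change for EtOH-160 minus TEN-220. Filled points had an adjusted p under 0.05. Sds reaches 6.02 for EtOH-160 minus TEN-220, where 2 of 3 TEN-220 arrays were under the background, and 4.44 for EtOH-160 minus TEN-160. For TEN-160 minus TEN-220, Cpt1a, Igfbp1 and Pck1 are filled on the higher side and Slc37a4 and Gpt on the lower.

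For each called receptor probe set, the genes with the most similar profile were found by the root mean square difference of log2 signal, each centred on its mean, over all 13 arrays and 4299 probe sets of other single genes. Nearest to Adra2a U79031_at were Evi5 (0.449), Svil (0.466) and Nktr (0.470), where the median of all candidates was 1.06. Nearest to Agtr1a M74054_s_at were Ufsp2 (0.1499), Idh1 (0.174) and Brcc3 (0.175), with a median of 0.550. Nearest to Agtr1a X62295cds_s_at were Srsf11 (0.211), Rpl41 (0.226) and Ppib (0.235), with a median of 0.719, and to M86912exon_g_at Dpp4 (0.166), Crp (0.183) and Srsf2 (0.185), with a median of 0.531. Nearest to M86912exon_at were Hsd17b4 (0.0792), Gsta1 (0.123) and Ttr (0.124), with a median of 0.415. Nearest to Egfr were Parp1 (0.226), Nras (0.234) and Cast (0.267), with a median of 0.708. The 3 nearest genes differed between the 4 Agtr1a probe sets.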

How the data were processed

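The deposited intensity values are linear signals of 8799 probe sets, which the authors made with MAS5, per the submitters' processing notes, which name no version. With 2% trimmed off each end, the mean signal was 501 on 12 arrays and 133 on TEN-220 replicate 1. Groups follow the sample titles. The 59 control probe sets were left out, the other 8740 were quantile normalized over all 13 arrays, signals under the 10th percentile (9.34) were set to it, and log2 was taken. The 40% of probe sets with the lowest mean were dropped, which left 5244. Of these, 4309 named exactly 1 gene in the array's annotation, 245 several and 690 none, and 4297 of the 4309 matched a current gene symbol by Entrez ID.

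Group means of all 13 arrays were fitted in R 4.3.3 with limma 3.58.1 (lmFit, eBayes with a trend). Tests were two-sided, and p-values were adjusted by Benjamini-Hochberg separately for the 6 comparisons. Precision is limited by the number of arrays, with a median SE of 0.238 to 0.254 for pairwise changes. Figures were drawn in Python 3.11.15 with matplotlib 3.10.9. The fit was tested on simulated data. Within-group correlations between arrays were 0.935 to 0.974, and no columns were identical.

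The receptors and all gene lists were chosen with earlier results of these data known. Named genes were all receptor probe sets, up to 4 called genes of each list and comparison by smallest p, and the 3 nearest profiles. Alternatives covered normalization, floor, filter, variance trend, arrays in the fit, replicate block, threshold and leaving out each array. No genome was used; promoter windows are RefSeq's.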

Additional observations from a re-analysis of the deposited data

Results flagged for a closer look

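On Agtr1a M86912exon_g_at, EtOH-160 replicate 4 lay far from the rest of its group, at 1266.5 against 1729.9 to 1789.5 on the other 3 arrays. The gap to its nearest neighbour was 0.902 of the group's whole range on the log2 scale, and chance puts about 1 in 20 groups of this size past such a limit. Without a single array, the change of this probe set with ethanol at 160 kcal lay between −0.996 and −0.749 and was called in all 13 fits.

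The change of Agtr1a with ethanol differed between the energy levels by the interaction term of the limma fit. The change at 160 kcal minus that at 220 kcal was −0.992 on M74054_s_at, −0.937 on M86912exon_g_at and −1.45 on X62295cds_s_at, at limma adjusted p of 0.0158, 0.0292 and 0.0123. On all 3 probe sets the TEN-160 arrays were above the other 10. The differences between those arrays and the diet cannot be told apart.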

How the results depend on the processing

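The counts of receptor probe sets called changed beyond 1.5 times under these alternatives. With signals as deposited, where TEN-220 replicate 1 keeps its own scale and enters the spread of every comparison, 0 were called with ethanol at 160 kcal (6 as reported), 2 for energy without ethanol (4) and 0 in the interaction (3). That scale moved the median of all probe sets by 0.636 to 0.725 in pairwise comparisons with TEN-220 and by −0.771 in the interaction, and Gnas and Phkg2 reversed for energy without ethanol, to 0.14 and 0.16. At an adjusted p under 0.10 the interaction had 6 calls, and with only the groups compared in the fit, both treatments had 1, Egfr. Leaving out 1 array gave 4 to 6 calls with ethanol at 160 kcal, 4 for energy without ethanol, 1 to 4 in the interaction (1 without TEN-220 replicate 1) and 0 to 1 for both treatments (1 without TEN-160 replicate 3). No receptor probe set that was called reversed under any alternative. Same-numbered arrays were not treated as pairs in the reported fit. Their 18 correlations of deviations were −0.112 to 0.0853, none over 0.1, and 5 of 13 arrays were closest to their own number. With groups of 3 or 4 arrays, these values cannot decide whether the numbers mark pairs. With a replicate block, 4 receptor probe sets were called with ethanol at 160 kcal, 4 for energy without ethanol and 3 in the interaction, and calls over all probe sets went to 2 for energy with ethanol (15 as reported), 58 for both treatments (117) and 2 for ethanol at 220 kcal (1). The glucagon-responsive list had 4 to 10 calls for both treatments without 1 array and 3 with the block (9 as reported), and 10 to 13 with ethanol at 160 kcal without 1 array (12). Of the 62 calls of named list genes, 24 held in all 13 fits that left out 1 array, among them all those of Rapgef4, Met, Dnm2, Map2k2, Prkcb, Cpt1a and Fbp1. The calls of Enpep (ethanol at 160 kcal), Phkg2 and Plcb1 (energy without ethanol) and Igfbp1, Adra1d and Adcy6 (interaction) held in 1 to 4 of these fits, and the other 32 in 5 to 12. Leaving out 1 array ended 5 to 22 of the 62 calls, with 22 ended without TEN-160 replicate 3 and 22 without TEN-220 replicate 1. Median centring moved the median of all probe sets by −0.135 for energy without ethanol and 0.162 in the interaction. Signals near 44.0, as for Adra2a, limit what these arrays can resolve.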
